A study of Homo sapiens with 6 samples.

Results

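Chromosome 13 was described through the 257 genes of the expression table that start on it and whose FPKM averaged 0.5 or more across all 6 libraries. FPKM gives sequenced fragments per length of the gene and size of the library. The table listed 287 genes on the chromosome, so 30 were under this minimum, and the 257 members stood among 14068 genes that passed it of 15897 listed on all chromosomes. The chromosome was chosen because its genes were lower in one group of libraries than those of other chromosomes, so its overall difference is given here as a description with no test.

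RNA-seq was performed with total RNA labeled as from H1650, an established human lung adenocarcinoma line, in 3 libraries labeled control, of wild-type genotype, and 3 labeled shSETD2. SETD2 is the methyltransferase that trimethylates lysine 36 of histone H3, and the comparison asked which genes depend on it. Per the study's methods, stable lines were made with lentivirus and 3 shRNA constructs against SETD2 were used, but neither these methods nor the labels say whether the shSETD2 libraries 1 to 3 stand for constructs or replicates of a single construct, nor which vector the controls carried. Nothing states that the libraries came from separate cultures, so every p-value behind a call measures only the spread between these libraries, which may be technical.

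SETD2 itself had 17.99, 10.2 and 17.6 FPKM in control libraries 1 to 3 and 8.97, 8.09 and 12.2 FPKM in shSETD2 libraries 1 to 3. The groups overlapped, since the second control library lay below the third shSETD2 library, and the difference of -0.58 in log2(FPKM + 1) did not pass the test (limma, adjusted p = 0.0641). The groups are therefore named by their labels throughout. Of 8 markers of lung epithelium only NKX2-1 was listed, with 1.71, 1.80 and 1.44 FPKM in the control libraries and 0 in each shSETD2 library. The 7 listed of 8 epithelial markers summed to 14.1 to 16.02 FPKM in the control and 402.05 to 454.5 FPKM in the shSETD2 libraries. With the control range before that of the shSETD2 libraries, the sum was carried by KRT7 (0 to 0.0375 and 77.01 to 87.1 FPKM), KRT8 (2.58 to 3.07 and 87.2 to 99.96 FPKM) and KRT18 (9.11 to 10.8 and 236 to 266 FPKM), while CDH1 (0.860 to 1.52 and 0.0107 to 0.0140 FPKM) and EPCAM (0.582 to 0.830 and 0.166 to 0.301 FPKM) were lower in the shSETD2 libraries. The 6 mesenchymal markers summed to 98.4 to 113.1 and 169.5 to 179.6 FPKM, with 6 and 4 of them at 1 FPKM or more. VIM (60.6 to 76.7 and 128.8 to 137.5 FPKM), FN1 (6.17 to 6.52 and 13.5 to 14.5 FPKM) and CDH2 (19.5 to 21.1 and 21.9 to 23.9 FPKM) were higher in the shSETD2 libraries. The groups overlapped for ZEB1 (3.00 to 4.96 and 1.95 to 4.16 FPKM), while SPARC (4.38 to 4.57 and 0 to 0.0528 FPKM) and COL1A1 (2.53 to 3.01 and 0.213 to 0.311 FPKM) were lower in the shSETD2 libraries. Of 8 genes typical of embryonic kidney lines 6 were listed, summing to 73.1 to 77.3 and 13.7 to 15.4 FPKM, with 4 and 2 of them at 1 FPKM or more, and NEFL, NEFM, INA and SALL1 were listed at 0 in every shSETD2 library. The other listed genes were higher there, PAX2 at 0.578 to 0.911 and 9.49 to 10.5 FPKM and LHX1 at 0.748 to 0.841 and 4.22 to 4.89 FPKM. These marker levels differed between the groups together with the values of chromosome 13 given next, and their part in them was not tested. Whether both groups are the same cell line cannot be settled from these values, so each difference below is one between libraries carrying these labels. In bulk RNA, fewer cells that express a gene and less RNA per cell cannot be told apart.

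Human chromosome 13 is acrocentric: its short arm carries ribosomal RNA repeats, and its protein-coding genes lie on a long arm that is among the most gene-poor of the genome. The long arm is known for the tumor suppressor genes RB1, which restrains entry into S phase, and BRCA2, which acts in homologous recombination. It is also known for MIR17HG, whose transcript carries the miR-17-92 cluster of growth-promoting microRNAs. Between its gene-rich ends lie long stretches with few genes, many of them coding for proteins of the nervous system and of cell adhesion.

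The microRNAs of MIR17HG are shown because their host transcript lay among the 10 lowest of the 257 members and because they are the best known small RNAs of the chromosome. MIR17HG is a processed transcript at chr13:92000074-92006833 on the plus strand of GRCh37. Its 6 hairpins were found there by an exact match of the RefSeq hairpin sequences, in the order MIR17, MIR18A, MIR19A, MIR20A, MIR19B1 and MIR92A1, between positions 92002859 and 92003645. The main mature forms follow 5′ to 3′, with the seed, bases 2 to 8, in capitals:
hsa-miR-17-5p: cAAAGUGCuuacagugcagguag
hsa-miR-20a-5p: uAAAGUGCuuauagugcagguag
hsa-miR-18a-5p: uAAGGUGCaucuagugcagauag
hsa-miR-19a-3p: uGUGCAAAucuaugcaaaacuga
hsa-miR-19b-3p: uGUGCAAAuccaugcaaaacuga
hsa-miR-92a-3p: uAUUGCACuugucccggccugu
The forms miR-17-5p and miR-20a-5p shared the seed AAAGUGC, and miR-19a-3p and miR-19b-3p shared GUGCAAA. The seeds of miR-18a-5p, AAGGUGC, and of miR-92a-3p, AUUGCAC, each occurred once among the 12 mature forms of the cluster.

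The host transcript had 22.7, 21.4 and 21.2 FPKM in control libraries 1 to 3 and 1.97, 2.78 and 2.24 FPKM in shSETD2 libraries 1 to 3. All 3 shSETD2 libraries lay far below all 3 control libraries, and the difference of the group means was -2.78 ± 0.0938 (SE, n = 3 per group) in log2(FPKM + 1). The mature microRNAs themselves were not measured.

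The start regions between divergently transcribed members, and that of the lowest member, are shown next, since neighboring genes and the extremes carry the description that follows. The gaps between divergent starts are given on the plus strand of GRCh37, and the bases before POU4F1 on the strand of the gene. No annotated exon lies in any of these windows. Capitals mark a GC box, searched as GGGCGG on both strands. A CCAAT box, searched as these letters on both strands, would also be in capitals, and the letters of the boxes searched do not overlap each other.
MZT1 and BORA, chr13:73301826-73301886: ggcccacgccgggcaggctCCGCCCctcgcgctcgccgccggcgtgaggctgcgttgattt
COMMD6 and UCHL3, chr13:76123576-76123615: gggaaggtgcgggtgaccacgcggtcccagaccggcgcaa
DCUN1D2 and TMCO3, chr13:114145268-114145309: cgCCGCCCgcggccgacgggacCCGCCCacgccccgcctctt
POU4F1, minus strand, chr13:79177696-79177895: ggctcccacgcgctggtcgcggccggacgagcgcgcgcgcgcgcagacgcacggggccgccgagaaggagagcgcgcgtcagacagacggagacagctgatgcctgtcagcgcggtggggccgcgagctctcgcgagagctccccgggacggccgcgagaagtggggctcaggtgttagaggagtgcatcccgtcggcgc
The gap of MZT1 and BORA held 1 GC box, that of DCUN1D2 and TMCO3 held 2, and that of COMMD6 and UCHL3 held none, while no window held a CCAAT box. The 200 bases before POU4F1 held no box at a GC content of 74.0%. Of 35116 RefSeq promoters (GRCh38.p14) 40.1% held a GC box and 28.03% a CCAAT box in the 200 bases upstream, and in windows of 61, 40 and 42 bases a GC box was found in 23.4%, 14.3% and 15.1% of them. Of the 257 members 193 were matched to RefSeq promoters by symbol, and their 286 promoters held a GC box in 53.1% and a CCAAT box in 27.97%.

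Over the 257 members, the median difference of group means, shSETD2 minus control, was -0.73 in log2(FPKM + 1). Genes of all chromosomes had a median difference of -0.29, so differences are given below relative to this median, and a relative difference of 0 is that of the median gene. The median relative difference of chromosome 13 was -0.44, with an interquartile range from -0.85 to 0.13, against -0.54 to 0.59 for all genes. It was the lowest of 23 chromosomes, followed by chromosome 4 at -0.36, chromosome 15 at -0.27 and chromosome X at -0.25, while chromosome 20 was the highest at 0.69. Of the 257 members 178 (69.3%) lay below the median of all genes, as did 329 of 491 genes (67.0%) on chromosome 4 and 86 of 372 (23.1%) on chromosome 20.

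**Figure D1:**
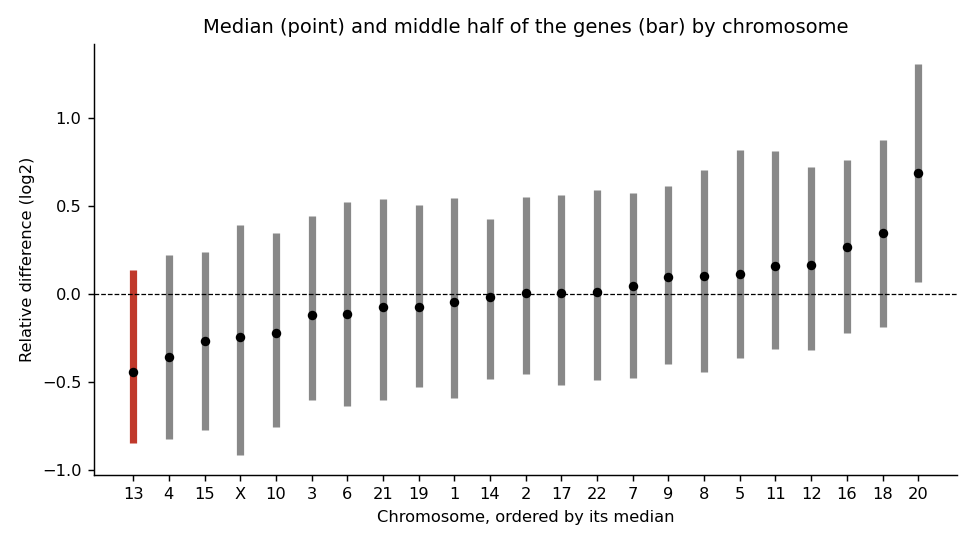
Median relative difference in log2(FPKM + 1) of the genes of each of 23 chromosomes (point) with the interquartile range (bar), ordered by the median and with chromosome 13 in red. Chromosome 13 stands lowest at -0.44 and chromosome 20 highest at 0.69, and the interquartile ranges of all chromosomes overlap.

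The 3 shSETD2 libraries gave nearly the same value. Against the mean of the control libraries, the members' median relative difference was -0.48, -0.40 and -0.44 in shSETD2 libraries 1 to 3. Each control library against the mean of the other control libraries gave -3.52e-04, 0.0073 and -0.012. Each shSETD2 library against the mean of the other shSETD2 libraries gave -0.028, 0.056 and -0.023. These values show the spread within each group, which was small beside the difference between the groups. The listed genes of chromosome 13 took 1.05%, 1.05% and 1.04% of the FPKM sum of the control libraries and 0.643%, 0.689% and 0.631% of that of the shSETD2 libraries. The median level of the members was 5.43, 5.69 and 5.35 FPKM in control libraries 1 to 3 and 3.04, 3.36 and 3.09 FPKM in shSETD2 libraries 1 to 3. The same median over all 14068 genes was 5.04 to 5.10 and 4.33 to 4.36 FPKM. In each control library 1 member was listed at 0, against 19, 19 and 17 members in shSETD2 libraries 1 to 3. Of all genes 2.84% were listed at 0 in every shSETD2 library and 1.02% in every control library. A gene at 0 in every library of a group passed the minimum only through the other group.

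Of the 257 members 184 (71.6%) passed the test (limma, adjusted p under 0.05) as lower and 32 (12.5%) as higher in the shSETD2 libraries, and 41 did not pass. The test called 51.8% of all genes lower and 26.8% higher, 78.6% in all, and it asks for a difference from 0 and not from the median of all genes. Under median ratio scaling, which put the median of all genes at -0.01, it called 153 members lower and 54 higher. Of these member calls 26.1% were higher, against 49.6% of the 10699 calls over all genes under the same scaling. The libraries of the groups did not overlap for 185 members (72%) lower and 36 (14%) higher in the shSETD2 group, against 53% and 27.9% of all genes. The contrast chose the chromosome, so these counts stand beside the background as a description. More than 1 below the median of all genes were 51 members (19.8%, against 11.2% of all genes), and 15 members were more than 1 above it (5.84%, against 15.5%).

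The difference was not even along the chromosome. In windows of 10 Mb by start position, the median relative difference was -0.19 from 20 to 30 Mb (43 members), -0.45 from 30 to 40 Mb (35 members), -0.43 from 40 to 50 Mb (45 members) and -0.46 from 50 to 60 Mb (27 members). It stepped down to -1.24 from 60 to 70 Mb, where only 4 members start, and reached -1.48 from 70 to 80 Mb (23 members). Towards the end of the long arm the medians were higher again, with -1.26 from 80 to 90 Mb (4 members), -0.83 from 90 to 100 Mb (26 members), -0.52 from 100 to 110 Mb (20 members) and finally 0.19 from 110 Mb on (30 members). The last window was the only one of the 10 above the median of all genes.

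**Figure D2:**
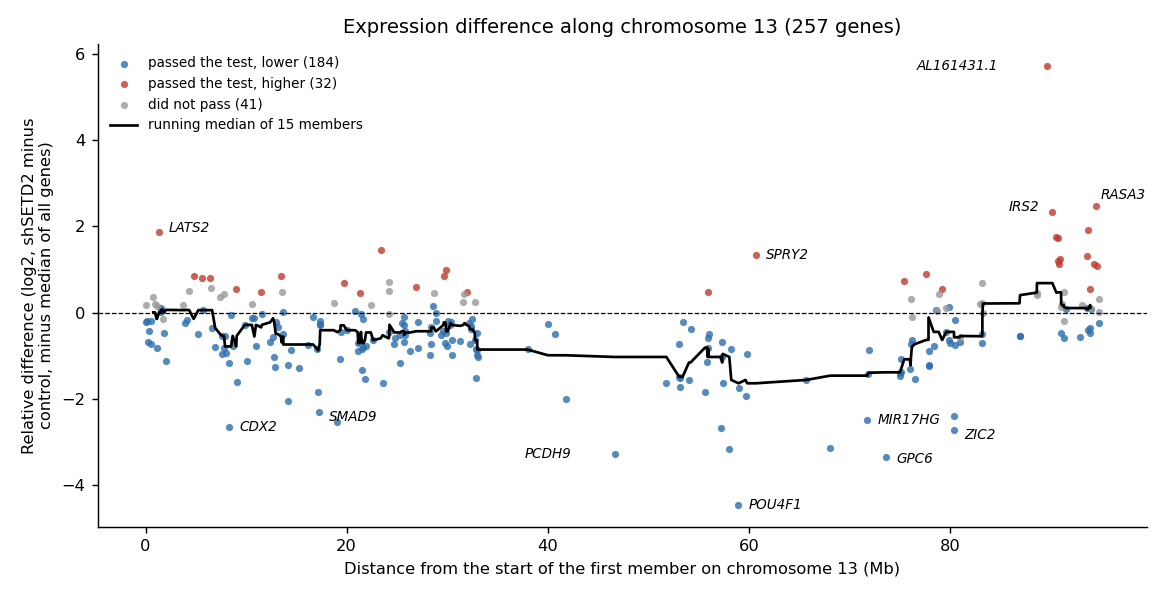
Relative difference of each of the 257 members in log2(FPKM + 1) against the distance of its start from that of the first member in Mb, with the running median of 15 neighboring members (line), members called lower in blue, called higher in red and not called in gray. The line lies at -1.64 around POU4F1 and at 0.69 around IRS2, and AL161431.1 is the highest point at 5.72.

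The window from 70 to 80 Mb had the lowest median of 290 windows of all chromosomes with at least 10 genes, ahead of a window of chromosome X from 20 to 30 Mb at -1.11 and of chromosome 1 from 230 to 240 Mb at -0.85. The window from 90 to 100 Mb was the fourth lowest. The window from 70 to 80 Mb gave -1.59, -1.44 and -1.51 in shSETD2 libraries 1 to 3 against the control mean, and -5.12e-04, 0.017 and -0.028 in each control library against the others. All 3 shSETD2 libraries thus lay low against the control mean in this window. The control libraries were compared only with each other, so their values show the spread within that group. Of its 23 members 22 were called lower and 1 higher, where 51.8% of all genes were called lower and 26.8% higher. From 110 Mb on, 12 of 30 members were called higher and 10 lower, and the 3 shSETD2 libraries gave 0.31, 0.34 and 0.19. Both windows were picked by the contrast that gives the calls, so these counts are a description.

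The running median of 15 neighboring members gave the same shape without window borders. It was lowest at -1.64, centered on POU4F1 and spanning members from 76.2 to 92.0 Mb, and highest at 0.69, where its centre lay on ABHD13, AL161431.1 or IRS2. It was below the median of all genes at 195 of 243 centres. Most centres from CRYL1 to CDK8, near the start of the long arm, lay above the median of all genes, at 0.01 to 0.07. Within that stretch the centres on EEF1AKMT1, XPO4 and PARP4 lay below it, at -0.14. All centres from ERCC5 at 103.5 Mb to the end lay above it. The running medians share most of their genes with the next, so neighboring values are not independent. Neighboring members had similar differences, with a Pearson r of 0.44 over 256 neighboring pairs. The same r was 0.42 on chromosome 18, 0.32 on chromosomes 16 and X, 0.24 on chromosome 4 and 0.13 on chromosome 20. Its range over the 23 chromosomes, with chromosome 13 at the top, was 0.10 to 0.44, with a median of 0.21.

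GC content moved with the profile. It was 36.9% in the window from 70 to 80 Mb, 35.0% in both windows with 4 members and 47.3% from 110 Mb on, and over the 10 windows of chromosome 13 it correlated with the median relative difference at a Pearson r of 0.87. Over the 290 windows of all chromosomes with at least 10 genes that r was 0.23. This minimum leaves out both windows with 4 members, so the r values rest on unlike sets of windows. In the 97 windows with the lowest GC content, 35.4% to 39.3%, the median of the window medians was -0.14, against 0.03 in the 97 windows with the highest GC content. Of the 8 windows of chromosome 13 with at least 10 genes, 5 belonged to the set with the lowest GC content. The windows share their libraries, and the part of GC content in the profile was not tested.

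**Figure D3:**
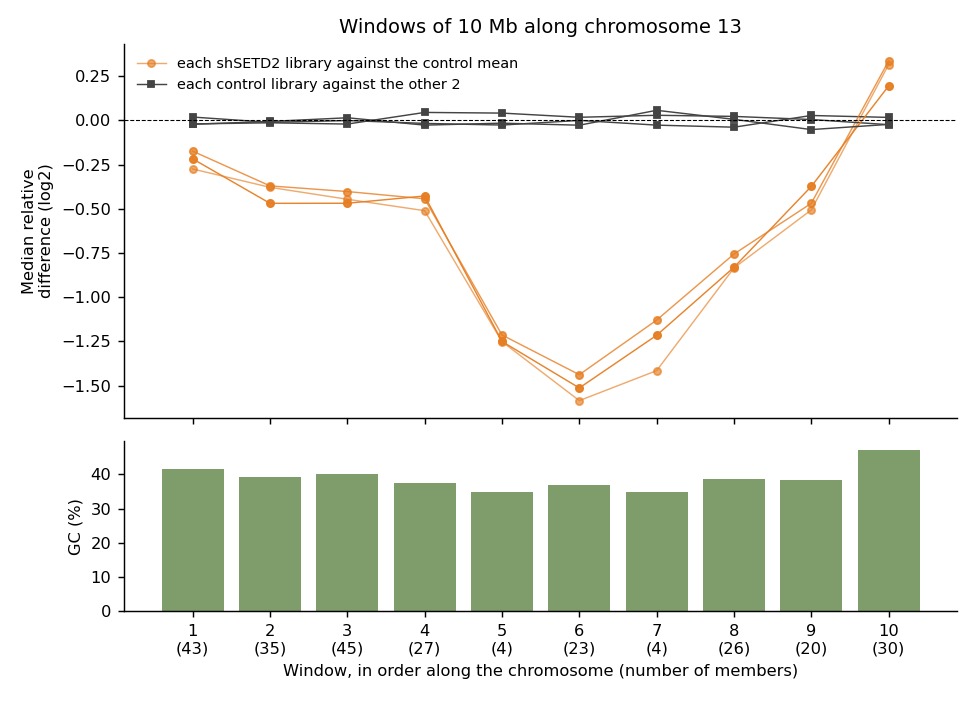
Median relative difference in log2(FPKM + 1) of the members in 10 windows of 10 Mb in order along chromosome 13 (upper panel), for each shSETD2 library against the control mean (circles) and each control library against the other control libraries (squares), above the GC content of each window in percent (bars), with the number of members in brackets. The circles reach their lowest values in the sixth window, at -1.59 to -1.44, and lie above 0 only in the last window, while the squares stay near 0.

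The lowest member of the chromosome was POU4F1 (ENSG00000152192.7_2, chr13:79172497-79177695, minus strand), a POU-domain transcription factor of sensory neurons. It had 26.1, 26.4 and 25.8 FPKM in control libraries 1 to 3, and 0, 0.0246 and 0.0132 FPKM in shSETD2 libraries 1 to 3. All control libraries were close to each other, and the shSETD2 libraries were at or near 0. The relative difference was -4.45, and for members listed at or near 0 in a group this value reflects the pseudocount of 1 as well as the level of the other group. The surrounding trough held further members with high control levels, of which the named ones follow.

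KCTD12, an auxiliary subunit of GABA-B receptors, had 33.8, 34.98 and 33.7 FPKM in control and 3.196, 3.62 and 3.73 FPKM in shSETD2 libraries 1 to 3. SLAIN1, which promotes microtubule growth, had 13.4, 13.6 and 13.2 FPKM in control and 0.289, 0.322 and 0.337 FPKM in shSETD2 libraries. Neither gene had overlapping groups, and their relative differences were -2.67 and -3.16. RNF219, a RING-type ubiquitin ligase next to POU4F1, had 30.7, 31.7 and 28.5 FPKM in control and 6.55, 6.76 and 6.43 FPKM in shSETD2 libraries, and RBM26, an RNA-binding protein, 36.2, 36.7 and 35.9 FPKM in control and 6.79, 7.22 and 6.99 FPKM in shSETD2 libraries. Both fell without reaching 0, with relative differences of -1.75 and -1.93. PIBF1, a protein of centrosomes and cilia, had 14.8, 15.01 and 15.4 FPKM in control and 2.79, 3.45 and 2.81 FPKM in shSETD2 libraries, a relative difference of -1.71.

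The exception in the trough was LMO7, an actin-linked protein of cell junctions and the only member of the window above the median of all genes. It had 3.06, 3.17 and 2.79 FPKM in control and 3.79, 3.305 and 3.54 FPKM in shSETD2 libraries, so the groups were separated by a small margin, and its relative difference was 0.47. It was called higher, but the call was lost with the replicate number as a block, with a pseudocount of 0.01 or 0.1, and without any library other than shSETD2 library 2, where its relative difference was 0.43 to 0.50. KLF5, a Krüppel-like factor of epithelia, had 9.92, 9.09 and 10.4 FPKM in control and 6.18, 7.27 and 6.29 FPKM in shSETD2 libraries. Its groups did not overlap, its relative difference of -0.22 was small for this window, and its call was lost under median ratio scaling. EDNRB, the endothelin receptor B, was low in both groups, with 1.197, 1.25 and 1.21 FPKM in control and 0.0131, 0 and 0.0142 FPKM in shSETD2 libraries.

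On either side of the trough, from 60 to 70 Mb and from 80 to 100 Mb, further members were listed at or near 0 in the shSETD2 libraries, of which the lowest of each window follow. PCDH9, a protocadherin at chr13:66876966-67804577, had 10.7, 11.2 and 10.7 FPKM in control libraries and was listed at 0 in each shSETD2 library. SLITRK5, a neuronal transmembrane protein, had 10.3, 10.6 and 9.904 FPKM in control and 0.0338, 0.0479 and 0.0656 FPKM in shSETD2 libraries. GPC6, a glypican that carries heparan sulfate at the cell surface, had 10.9, 11.4 and 11.6 FPKM in control libraries and was listed at 0 in each shSETD2 library. All 3 genes code for cell surface proteins, and their groups were far apart. From 60 to 70 Mb the highest member, DIAPH3, a formin, had 16.6, 17.02 and 16.8 FPKM in control and 10.7, 11.9 and 10.9 FPKM in shSETD2 libraries, a relative difference of only -0.26. SPRY2, an inhibitor of receptor tyrosine kinase signaling that starts at 80.9 Mb, rose from 10.4, 10.1 and 11.7 FPKM in control to 22.8, 22.4 and 24.4 FPKM in shSETD2 libraries. Its relative difference of 1.34 stood against 3 other members of that window that were called lower.

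From 90 to 110 Mb the members spread widely. MBNL2, a splicing regulator, rose from 6.28, 6.29 and 5.48 to 9.72, 10.05 and 9.41 FPKM and ABCC4, an efflux transporter, rose from 7.896, 8.31 and 7.72 to 11.1, 11.5 and 10.9 FPKM, each without overlap. ZIC2, a zinc finger factor of forebrain development, fell from 19.3, 18.3 and 16.04 FPKM in control to 1.37, 1.51 and 1.13 FPKM in shSETD2 libraries. Its relative difference was -2.72, the lowest from 100 to 110 Mb. In that same window lay the highest member of the chromosome, AL161431.1 (ENSG00000275216.1_3, chr13:109921982-109926186, plus strand), a long intergenic non-coding RNA. It had 0.0413, 0.00707 and 0.0243 FPKM in control and 43.8, 44.3 and 41.1 FPKM in shSETD2 libraries, so its control libraries lay near 0 and its shSETD2 libraries above 40 FPKM. Its relative difference of 5.72 was more than that of any other member, of which the next was 2.47.

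From 110 Mb on, only 8 of 30 members lay below the median of all genes. IRS2, an insulin receptor substrate at chr13:110405045-110438915, rose from 2.97, 3.17 and 3.15 FPKM in control to 16.4, 15.7 and 15.7 FPKM in shSETD2 libraries. COL4A1 rose from 6.85, 7.01 and 6.27 to 20.7, 19.7 and 20.2 FPKM, and COL4A2 from 12.9, 12.4 and 13.02 to 37.2, 35.01 and 37.7 FPKM. These are the chains of the main type IV collagen of basement membranes, and their genes overlap head to head at 110.96 Mb. The relative differences of the collagen genes, 1.75 and 1.74, lay within their standard errors of 0.0532 and 0.0448 of each other. Whether fragments of their overlap were assigned by strand was not given in the sources used here.

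LAMP1, a lysosomal membrane glycoprotein, rose from 11.5, 8.78 and 8.61 to 31.5, 30.4 and 32.2 FPKM. CUL4A, the scaffold of a ubiquitin ligase, rose from 5.39, 4.58 and 4.87 to 10.6, 11.5 and 11.2 FPKM. RASA3, a GTPase-activating protein of the Ras family near the end of the arm, rose from 3.44, 2.79 and 2.79 to 17.4, 16.1 and 17.9 FPKM. Their relative differences were 1.91, 1.32 and 2.47, and no control library reached a shSETD2 library for any of them. The lowest member from 110 Mb on was ANKRD10, with 11.4, 10.5 and 9.96 FPKM in control and 5.305, 5.66 and 4.93 FPKM in shSETD2 libraries and a relative difference of -0.59, so the last window lacked members as low as those before it.

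**Figure D4:**
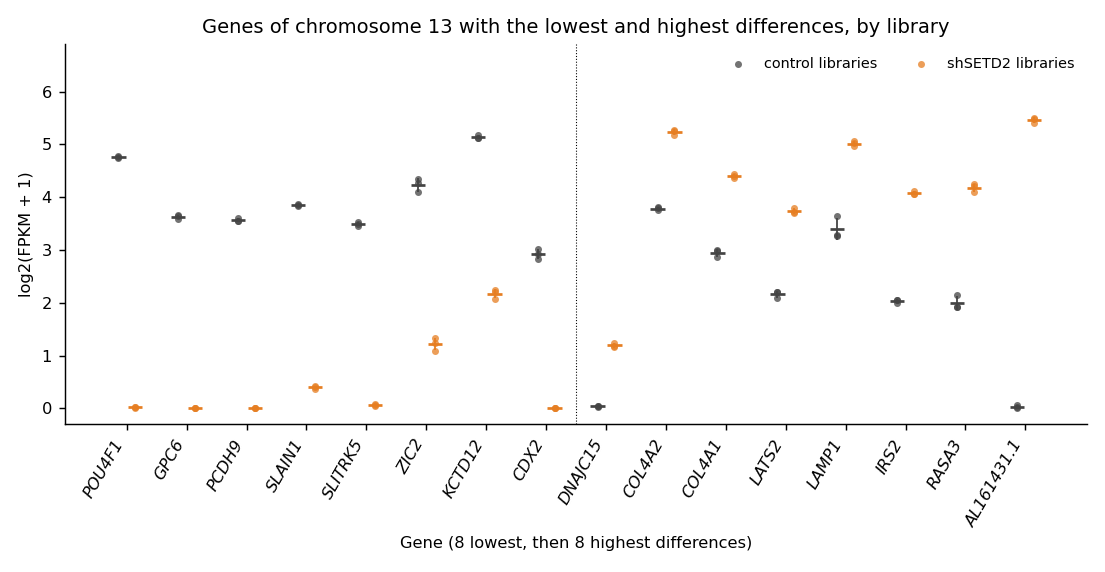
Levels in log2(FPKM + 1) of the 8 members with the lowest and the 8 with the highest difference, in each of 3 control (gray) and 3 shSETD2 (orange) libraries, with the group mean (horizontal bar) and SD (vertical bar). For POU4F1, GPC6, PCDH9 and CDX2 the shSETD2 libraries sit at or near 0, for AL161431.1 and DNAJC15 the control libraries do, and no pair of groups overlaps.

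The first part of the arm, from 20 to 60 Mb, held the most members, with window medians between -0.46 and -0.19. LATS2, a kinase of the Hippo pathway, was its highest member and rose from 3.59, 3.59 and 3.25 FPKM in control to 12.9, 12.1 and 11.999 FPKM in shSETD2 libraries. CDX2, a homeobox factor of the intestine at chr13:28536274-28545276, was its lowest, with 7.13, 6.63 and 6.12 FPKM in control libraries and 0 listed in each shSETD2 library. FREM2, an extracellular matrix protein, had 6.05, 6.15 and 6.04 FPKM in control libraries and was also listed at 0 in each shSETD2 library. DNAJC15, a co-chaperone of mitochondria, went the other way, from 0.0133, 0.0341 and 0.0382 FPKM in control to 1.23, 1.36 and 1.27 FPKM in shSETD2 libraries. ENOX1, with 3.88, 3.83 and 2.97 FPKM in control and 0.1901, 0.111 and 0.304 FPKM in shSETD2 libraries, was the lowest member from 40 to 50 Mb, and the non-coding AL359513.1, with 3.91, 4.51 and 3.51 FPKM in control and 0.506, 0.384 and 0.363 FPKM in shSETD2 libraries, the lowest from 50 to 60 Mb. STARD13 was the highest member from 30 to 40 Mb, with 2.06, 1.96 and 2.13 FPKM in control and 3.57, 3.44 and 3.54 FPKM in shSETD2 libraries, and PHF11 the highest from 50 to 60 Mb, with 0.694, 0.801 and 0.457 FPKM in control and 1.33, 2.09 and 1.66 FPKM in shSETD2 libraries.

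The 5 members nearest the median of the chromosome, at a mean of 5 FPKM or more, were chosen for that difference. COG3, a Golgi tethering factor, had 7.17, 7.04 and 7.48 FPKM in control and 4.13, 4.04 and 3.83 FPKM in shSETD2 libraries, and ZMYM2, a zinc finger protein, 8.64, 8.18 and 8.25 FPKM in control and 4.48, 5.002 and 4.598 FPKM in shSETD2 libraries. MICU2, a regulator of mitochondrial calcium uptake, had 7.95, 8.54 and 8.66 FPKM in control and 4.305, 5.16 and 4.24 FPKM in shSETD2 libraries. For these genes, and for RCBTB1 and CENPJ, the groups did not overlap and the relative difference lay between -0.50 and -0.43. The 5 most abundant members lay on both sides of this median. RPL21, a protein of the large ribosomal subunit, had 187, 184 and 196 FPKM in control and 104, 109 and 104 FPKM in shSETD2 libraries, and IPO5, a nuclear import receptor, 47.4, 49.2 and 48.9 FPKM in control and 22.3, 22.9 and 22.6 FPKM in shSETD2 libraries. SLC7A1, a transporter of cationic amino acids, had 45.9, 48.6 and 46.1 FPKM in control and 31.7, 30.2 and 31.7 FPKM in shSETD2 libraries. POMP, a proteasome assembly factor, had 38.5, 36.9 and 36.3 FPKM in control and 43.05, 47.9 and 44.5 FPKM in shSETD2 libraries, and TPT1, the translationally controlled tumor protein, 41.2, 33.8 and 41.8 FPKM in control and 25.5, 28.8 and 34.1 FPKM in shSETD2 libraries. Their relative differences ranged from -0.78 for IPO5 to 0.56 for POMP, and the groups overlapped only for TPT1. The call of POMP was lost under quantile normalization and that of TPT1 under median ratio scaling and without control library 1 or 3 or shSETD2 library 1 or 2, where its relative difference was -0.089 to -0.0076. RPL21, TPT1 and HMGB1 have many near-identical copies in the genome, and how such reads were assigned was not given in the sources used here, so their levels are uncertain.

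At 1 FPKM or more in every control library and under 0.1 FPKM in every shSETD2 library were 21 members (8.17%, against 4.45% of all genes), and 17 members were listed at 0 in every shSETD2 library (6.61%, against 2.84%). The opposite pattern was found for DNAJC15 and AL161431.1 only, 2 members (0.778%, against 1.97%), and 0 members were listed at 0 in every control library (1.02% of all genes). The 21 members were chosen by these values and are named for that reason. They included the transcription factors POU4F1, CDX2, PDX1 and SOX21, of which PDX1 is known from the pancreas and SOX21 from the nervous system, with the antisense SOX21-AS1. Cell surface and matrix genes among them were PCDH9, PCDH20, GPC5, GPC6, SLITRK5 and FREM2, and HS6ST3 modifies heparan sulfate. Signaling genes among them were the ligand FGF9, the receptors FLT1 and EDNRB and the kinase DCLK1. The others were SLC46A3, SERTM1, LINC00351, AL160394.1 and AL356118.1. Their lowest control value was 1.03 FPKM, in FLT1.

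The members were also read by role, with 7 lists of chromosome 13 genes written from general knowledge with earlier results of these data known. Some genes stood in more than 1 list. Since the lists were written by hand, the place of a gene in a list is uncertain. This holds for PROSER1 among the genes of DNA repair and the cell cycle. Beside each count, 26.8% of all genes were called higher and 51.8% lower, and the median of all genes lies at a relative difference of 0. These lists were not tested as lists.

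Of 29 genes of DNA repair and the cell cycle 27 were listed and tested, of which 18 were called lower, 3 higher and 6 neither, with a median relative difference of -0.22. The lowest was RFC3, a subunit of the clamp loader of DNA replication, with 43.7, 43.1 and 43.1 FPKM in control and 13.7, 16.1 and 14.5 FPKM in shSETD2 libraries, followed by PROSER1, with 9.57, 9.57 and 9.08 FPKM in control and 2.99, 3.07 and 3.13 FPKM in shSETD2 libraries. The highest were LATS2 and CUL4A. BRCA2 fell from 11.03, 10.9 and 12.02 FPKM in control to 5.47, 6.92 and 5.31 FPKM in shSETD2 libraries, with a relative difference of -0.55. RB1 had 10.2, 11.5 and 11.1 FPKM in control and 11.5, 13.7 and 12.3 FPKM in shSETD2 libraries, so its groups were separated by less than the range within the shSETD2 group, and it did not pass the test as deposited but did under upper quartile, quantile and median ratio scaling, with the replicate number as a block and without shSETD2 library 1, where its relative difference was 0.52. LIG4, the ligase of non-homologous end joining, had 3.21, 3.27 and 3.21 FPKM in control and 3.24, 3.99 and 3.57 FPKM in shSETD2 libraries, with overlapping groups.

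Of 22 transcription factors 20 were listed and tested, of which 17 were called lower, 1 higher and 2 neither, with a median of -0.34 and a range from -4.45 to 0.47. POU4F1 and ZIC2 were the lowest. RB1 and ELF1, an ETS factor, were the highest, and ELF1 had 6.15, 6.13 and 5.79 FPKM in control and 6.56, 7.16 and 7.03 FPKM in shSETD2 libraries. ELF1 was called higher, but not with the replicate number as a block nor without control library 3 or shSETD2 library 2 or 3, where its relative difference was 0.44 to 0.45. FOXO1, a forkhead factor downstream of insulin signaling, had 6.52, 6.504 and 5.73 FPKM in control and 5.13, 5.05 and 5.02 FPKM in shSETD2 libraries and TFDP1, a partner of E2F factors, 23.9, 24.9 and 24.6 FPKM in control and 19.8, 22.5 and 20.6 FPKM in shSETD2 libraries. Both lay close to the median of all genes, at 0.04 and 0.08, and their side of it changed under quantile normalization and with a mean FPKM of at least 5, and that of FOXO1 also without control library 3, at -0.016. Both calls as lower were lost under median ratio scaling. HMGB1, a chromatin protein, had 31.7, 26.5 and 27.8 FPKM in control and 20.3, 22.6 and 20.6 FPKM in shSETD2 libraries, and its call was lost under median ratio scaling.

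Of 35 genes of signaling receptors, ligands and their adaptors 25 were listed and 24 tested, of which 15 were called lower, 8 higher and 1 neither, with a median of -0.39. The lowest were SMAD9, a mediator of BMP signals that fell from 6.51, 5.78 and 6.41 FPKM to 0.212, 0.217 and 0.157 FPKM, and RGCC, a regulator of the cell cycle that fell from 2.48, 3.57 and 3.37 FPKM to 0.153, 0.253 and 0.103 FPKM. RASA3 and IRS2 were the highest. This list thus spread from -2.31 to 2.47, with both ends far outside the spread between libraries.

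Of 27 genes of adhesion, matrix and cytoskeleton 21 were listed and 19 tested, of which 13 were called lower, 5 higher and 1 neither. Its median of -0.69 was the lowest of the 7 lists. GPC6 and PCDH9 were the lowest members, and COL4A1 and COL4A2 the highest. Of 39 genes of mitochondria, metabolism and transport 29 were listed and tested, of which 24 were called lower, 2 higher and 3 neither, with a median of -0.47. PIBF1, which is a centrosomal protein, and SLC46A3, a lysosomal transporter with 2.64, 3.06 and 2.47 FPKM in control libraries and 0 listed in each shSETD2 library, were the lowest. ABCC4 was the highest, followed by WDFY2, a protein of endosomes, with 2.83, 2.96 and 2.52 FPKM in control and 3.49, 3.38 and 3.11 FPKM in shSETD2 libraries, whose call as higher was lost without control library 1 or 3 or shSETD2 library 1 or 2, at relative differences of 0.44 to 0.50.

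Of 28 genes of RNA processing and non-coding RNA 21 were listed and tested, of which 17 were called lower, 1 higher and 3 neither, with a median of -0.28. MIR17HG and RBM26 were the lowest, MBNL2 the highest, and LINC00346, a non-coding RNA with 0.4703, 0.593 and 0.411 FPKM in control and 0.757, 0.762 and 0.557 FPKM in shSETD2 libraries, had overlapping groups. Of 42 genes of ubiquitin, chaperones and protein handling 39 were listed and tested, of which 22 were called lower, 8 higher and 9 neither. The median of this list, -9.28e-04, was that of the median gene of the genome, with 20 of 39 members below it. KCTD12, the subunit of GABA-B receptors, and RNF219 were its lowest members, and LAMP1 and DNAJC15 its highest.

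**Figure D5:**
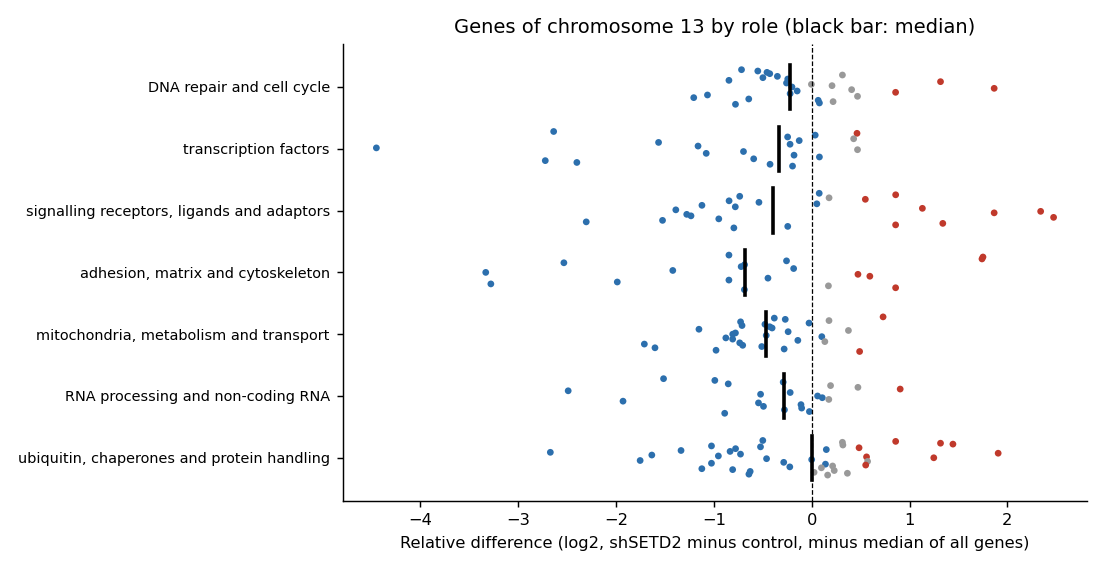
Relative difference in log2(FPKM + 1) of each tested gene of the 7 role lists (points, 19 to 39 per list; blue called lower, red called higher, gray neither), with the median of each list (black bar). The bars run from -0.69 for adhesion, matrix and cytoskeleton to -9.28e-04 for ubiquitin, chaperones and protein handling, and every list holds members on both sides of 0.

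Genes that share a start region did not always move together. On chromosome 13, 21 pairs of members faced away from each other with starts at most 1000 bases apart. In 16 of them (76.2%) both genes lay on the same side of the median of all genes, against 438 of 700 such pairs (62.6%) on all chromosomes and 174 of 256 pairs (68.0%) of neighboring members of any orientation. On chromosome 13, 69.3% of members lay below this median, against 50% of all genes, so the shares of the 21 and the 700 pairs have unlike baselines. COMMD6 and KDELC1 each stood in more than 1 of the 21 pairs. The Pearson r of the differences within the 21 pairs was 0.26, against 0.39 over the 700 pairs. The pairs described here were chosen after their values were seen. MZT1, a component of the microtubule nucleation complex, had 42.5, 43.9 and 41.4 FPKM in control and 9.92, 14.6 and 11.2 FPKM in shSETD2 libraries, and BORA, an activator of Aurora A, had 12.1, 10.3 and 10.8 FPKM in control and 4.18, 5.65 and 5.24 FPKM in shSETD2 libraries. Both lay in the trough and fell, with relative differences of -1.48 and -0.72 across a gap of 61 bases.

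COMMD6, a regulator of NF-κB, had 15.99, 23.96 and 15.7 FPKM in control and 6.696, 4.78 and 6.92 FPKM in shSETD2 libraries, and UCHL3, a deubiquitinase, had 14.1, 16.5 and 16.5 FPKM in control and 8.198, 4.98 and 7.57 FPKM in shSETD2 libraries across a gap of 40 bases. The groups did not overlap for either gene, although COMMD6 stood high in control library 2, and both genes were lowest in shSETD2 library 2. Their relative differences were -1.15 and -0.81. DCUN1D2, a cofactor of cullin neddylation, had 2.79, 3.15 and 2.89 FPKM in control and 1.05, 1.903 and 1.696 FPKM in shSETD2 libraries, while TMCO3, across a gap of 42 bases, had 3.50, 3.14 and 3.296 FPKM in control and 4.18, 4.22 and 4.10 FPKM in shSETD2 libraries. They lay on opposite sides, at -0.35 and 0.55. The genes CAB39L and SETDB2, with a gap of 247 bases, were also opposite, since CAB39L, an adaptor of the kinase LKB1, had 1.23, 1.13 and 0.966 FPKM in control and 2.06, 2.02 and 2.28 FPKM in shSETD2 libraries and SETDB2, a methyltransferase-like protein, 3.25, 3.50 and 3.45 FPKM in control and 1.305, 1.45 and 0.931 FPKM in shSETD2 libraries. Their relative differences were 0.86 and -0.70.

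Members were compared with genes of like level. Within classes of mean FPKM, the members' median relative difference was -0.47 from 0.5 to 2 FPKM (72 members), -0.32 from 2 to 5 FPKM (58), -0.53 from 5 to 10 FPKM (72), -0.26 from 10 to 20 FPKM (39) and -0.21 from 20 FPKM on (16). All genes in these classes had medians of -0.23, -0.10, 0.07, 0.17 and 0.33, so the members were lower than genes of like level in all 5 classes. The members spanned a median of 42.5 kb of the genome, against 28.1 kb for all genes tested. At the minimum of 0.5 FPKM, the members just inside were SERP2 at a mean of 0.506 FPKM and AL445223.1 at 0.519 FPKM, with relative differences of -0.72 and 0.04. The genes just outside were RUBCNL at 0.496 FPKM and MYCBP2-AS2 at 0.494 FPKM, with -0.70 and -0.04. Of the 30 genes under the minimum 3 were listed at 0 in all 6 libraries.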

How the data were processed

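Total RNA of 6 libraries was made into sequencing libraries with a stranded kit. The authors mapped reads to hg19 (GRCh37) with Hisat2, quantified genes with Ballgown and deposited FPKM per gene and library. Tool versions, the filter that chose the listed genes and the use of strand in counting are not given in the sources used here. A second deposited table repeats the FPKM and holds the authors' own comparison, which was not used. FPKM gives no fragment counts, so counting error is unknown and precision is known only from 3 libraries per group.

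All 14068 genes whose mean FPKM reached 0.5 were fitted on log2(FPKM + 1) with limma 3.58.1 (R 4.3.3; lmFit, eBayes with intensity trend), Benjamini-Hochberg adjusted over all of them, with a threshold of 0.05. The fit was tested on simulated data. Windows and running medians were computed in Python 3.11.15 with pandas 2.3.3 and numpy 2.4.6 and drawn with matplotlib 3.10.9, GC content and start regions with the GRCh37 genome and its GENCODE annotation, and microRNA and promoter sequences with RefSeq. Divergent starts were at most 1000 bases apart.

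The members, lists and alternatives were chosen with earlier results of these data known. The genes named were the 8 highest and 8 lowest members, the 5 most abundant, the 5 nearest the chromosome's median at 5 FPKM or more, the 2 highest and 2 lowest of each list, the highest and lowest of each window, those at the edge of the filter, and known genes of the chromosome. DLEU2, one of these, is not analysed here. Other genes are named where stated, chosen after their values were seen. The sequence before 1 member is not reported here.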

Additional observations from a re-analysis of the deposited data

How the results depend on the processing

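Chromosome 13 had the lowest median relative difference of 23 chromosomes in the analysis as reported and under every alternative that recomputes the differences of all chromosomes, namely the other filters, pseudocounts and scalings and each library left out. Its median of -0.44 became -0.62 with a minimum mean FPKM of 5, -0.35 with no filter on low values, -0.63 and -0.60 with pseudocounts of 0.01 and 0.1, and -0.36 with quantile normalization. Leaving out each library in turn gave -0.47 to -0.41. Chosen after seeing the data, leaving out members from 60 to 100 Mb gave -0.28, leaving out those from 110 Mb on gave -0.50, and members that overlap no other listed gene gave -0.46. Of 127 members with a mean FPKM of at least 5, 112 were called, 19 higher and 93 lower, so 17.0% of the calls were higher. Over all genes with this minimum 5647 were called, 42.5% of them higher. Of the 127 members 25.2% lay above the median of all genes, against 30.7% of all members. Under median ratio scaling 54 members were called higher and 153 lower, so 26.1% of the calls were higher, against 14.8% as deposited, and for all genes 49.6% against 34.1%. Without each library in turn, 203 to 213 members were called, 28 to 32 higher and 174 to 182 lower, and 29.96% to 31.5% lay above the median of all genes. Over all genes 10519 to 10801 were called in these fits.

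The lowest window became -1.70 with a pseudocount of 0.1. The highest became 0.41 in windows of 5 Mb, where it lay from 105 to 110 Mb and held 5 members. A running median of 9 members reached -1.75 and 1.25, against -1.64 and 0.69 with 15. The list of signaling genes had a median of -0.43 under median ratio scaling, against -0.39. FOXO1 changed sides of the median of all genes at a minimum mean of 5 FPKM (-0.12), quantile normalization (-0.0016) and without control library 3 (-0.016, in a range up to 0.061 over the libraries left out), and TFDP1 with a mean FPKM of at least 5 (-0.077) and quantile normalization (-0.27), and the cause was not tested. Of 784 values of named genes under the alternatives, 746 kept their direction and their side of the threshold.

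With the replicate number as a block, 213 members were called, 31 higher and 182 lower, and 10976 of all 14068 genes were called. The labels do not say that the numbers pair the libraries, and the deviations of same-numbered libraries from their group means correlated at a Pearson r of -0.024, 0.018 and -0.0077 over 14068 genes. FPKM gives no depth, so no difference of a gene near 0 can be set against its counting error.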

Other observations

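The members included 213 protein-coding genes, 19 sense-intronic transcripts, 15 long intergenic non-coding RNAs, 5 processed transcripts and 5 transcripts of the annotation class TEC. The median relative differences of these types were -0.43, -0.21, -0.46, -0.99 and -0.12, against 0.03, -0.11, -0.30, -0.33 and -0.16 for all genes of the same type. Sense-intronic transcripts made up 7.39% of the members and 2.70% of all genes tested.

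Of the 19 sense-intronic transcripts 18 lay in a tested host gene, and 12 of these lay on the same side of the median of all genes as the host. Among neighboring members of any kind 174 of 256 pairs (68.0%) lay on the same side. The transcripts named here were chosen after their values were seen. In RFC3, AL161891.1 had a mean of 12.4 FPKM in control and 1.64 FPKM in shSETD2 libraries, and its relative difference of -2.06 stood beside -1.21 for the host. In COL4A2 and RASA3, both called higher, AL159153.1 at 1.12 and RASA3-IT1 at 1.08 were also called higher. In LMO7, called higher at 0.47, AL137244.1 was called lower at -0.50, and in TMCO3 and STARD13 at least 1 intronic transcript was likewise called lower while the host was called higher. These transcripts lie within their hosts, so the values are not independent of them. Members that overlap another listed gene, 78 in number, had a median of -0.34, and the 179 that overlap none a median of -0.46.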
